A study of Caenorhabditis elegans with 2 samples.

Results

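The nuclear hormone receptor genes of Caenorhabditis elegans with an nhr- symbol were described for binding by HLH-1. Members were all protein-coding genes whose symbol is nhr- followed by a number, 269 of the 19973 protein-coding genes on the 6 nuclear chromosomes. HLH-1 was mapped by chromatin immunoprecipitation with sequencing (ChIP-seq) in whole embryos of mixed stage and mixed sex. The worms were of strain OP64, which carries the unc-119(ed3) mutation on chromosome III and the transgene wgIs64, an insertion that makes HLH-1 tagged with eGFP. There was 1 group of 2 biological replicates, and no second condition. The labels name neither the promoter of the fusion nor its copy number. A gene was called bound when a peak summit fell in a window around its start, the most 5′ annotated base, that reached 2000 bp upstream and 500 bp downstream. Whole embryos mix all tissues, and peak lists hold no expression values by which the tissue could be checked.

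HLH-1 is the worm's MyoD-type factor, a basic helix-loop-helix (bHLH) protein that drives the body wall muscle fate and binds E-boxes, sites of the form CANNTG. Nuclear receptors are transcription factors with a zinc finger DNA-binding domain and a domain that can bind small lipophilic ligands. The family is greatly enlarged in nematodes, mostly through duplicates of an HNF4-like ancestor, and a minority of members belong to subfamilies also found in insects and vertebrates. Worm members with known roles act in fat and sterol metabolism, moulting and the development of several tissues.

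All values came from peak lists on ce11. The list past the threshold on reproducibility (irreproducible discovery rate, IDR) held 3254 peaks with the authors' scores from 32.5 to 964.9, and all 3254 were the highest-scoring peaks of the relaxed list made from both replicates pooled. The relaxed list of replicate 1 had scores up to 165.7 and that of replicate 2 up to 806.3, so scores were read only within a list. Replicate 2 stood closer to the thresholded list. Of its peaks 93.7% overlapped one of the 3254 highest-scoring peaks of replicate 2, and 51.5% one of the 3254 highest-scoring peaks of replicate 1. Read depth was not used here, so the precision of a score is unknown.

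HLH-1 bound few nuclear receptor genes. Summits lay in the windows of 13 of the 269 nhr genes (4.83%, 95% Wilson interval 2.85 to 8.09), against 12.8% of all protein-coding genes. The bound members were nhr-1, nhr-3, nhr-32, nhr-35, nhr-48 and nhr-255 on chromosome X, nhr-2, nhr-49 and nhr-64 on I, nhr-12, nhr-47 and nhr-125 on V, and nhr-87 on IV. The remaining 256 members had no summit in the window. Each bound member had exactly 1 summit in its window, as did 92.2% of all bound protein-coding genes. Genes are not replicates, so the shares are given with no test, and the intervals cover counting of genes only.

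The family lay unevenly over the genome, and so did the bound members. Chromosome V carried 167 members (62.1% of the family, while it carried 4994 of the 19973 protein-coding genes), of which 3 were bound (1.80%, interval 0.613 to 5.15). The background on V was itself low, with 7.29% of its protein-coding genes bound. On X 6 of 23 members were bound (26.1%, interval 12.5 to 46.5), against 15.7% of protein-coding genes there. On I 3 of 23 members were bound (interval 4.54 to 32.1), against 15.9% of its protein-coding genes. On IV 1 of 33 was bound (3.03%, interval 0.537 to 15.3), against 12.1%. None of 15 members on II was bound (interval up to 20.4%, against a background of 12.7%), and none of 8 on III (interval up to 32.4%, against 17.7%). Outside V, 10 of 102 members were bound (9.80%, interval 5.41 to 17.1), against 14.6% of the other protein-coding genes. The background lay within the members' interval on I, II, III, IV and X, and for all members outside V, and lay above it on V.

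**Figure D1:**
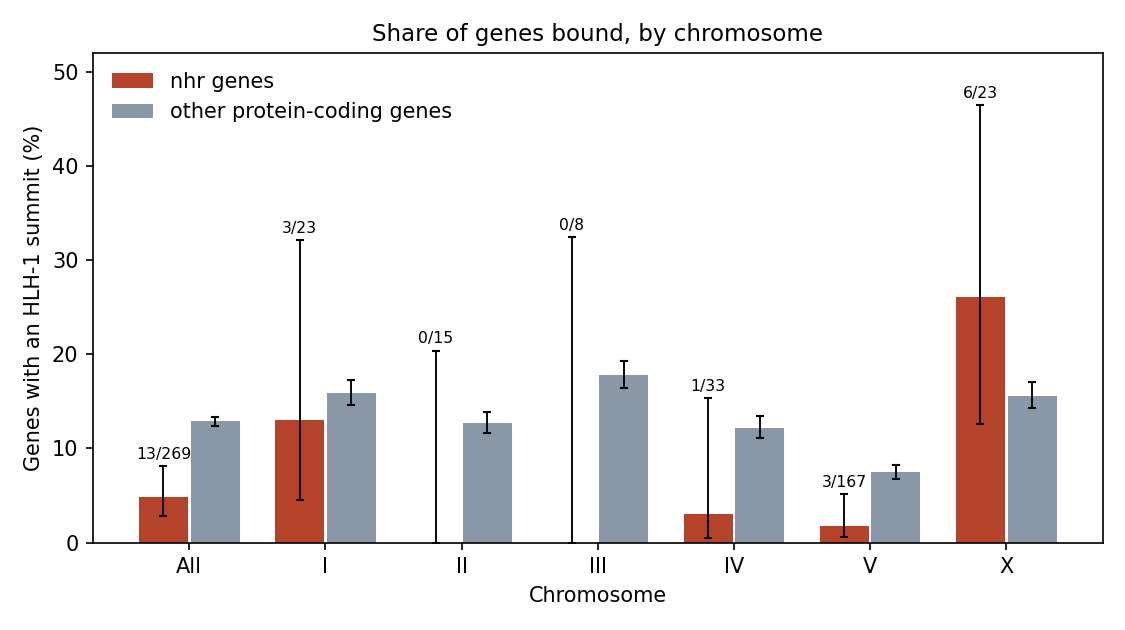
Percent of genes with an HLH-1 summit in the window, for nhr genes (red) and other protein-coding genes (grey), over all chromosomes and for each; bars are shares, lines are 95% Wilson intervals, and the numbers over the red bars are bound members over all members. The red bar is lower than the grey bar everywhere except on X, where 6 of 23 members were bound.

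The rates of the other genes were then applied to the members' own positions. At the overall rate of the other protein-coding genes, 34.7 of the 269 members would be bound. At the rates of the other genes on each member's own chromosome the number was 27.1, and at the rates of the same chromosome and the same zone of it, central or outer 50% of the length, it was 25.3. The measured number was 13. Of all members 160 lay in the outer zones, where 7 were bound (4.38%, against 10.9% of protein-coding genes), and 109 in the central zones, where 6 were bound (5.50%, against 14.3%). On V, 1 outer member was bound (0.901%, against 5.05% of the other genes there) and 2 of 56 central ones (3.57%, against 9.62%). The interval of the central members of V, 0.985 to 12.1, holds the share of the other central genes of V, and that of the outer members, 0.159 to 4.93, does not.

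Many nhr genes sit side by side. On V 107 of the 167 members had another member as the next protein-coding start, and 1 of these 107 was bound, nhr-12 (0.935%). Of the 60 members of V with no member beside them 2 were bound (3.33%). Of 174 other protein-coding genes on V that had a member beside them 5 were bound (2.87%). The share over all protein-coding genes of V was 7.29%. Outside V, 1 of 29 members beside another member was bound, nhr-87 (3.45%), against 9 of the 73 that had none beside them (12.3%). Other genes beside a member outside V were bound in 12 of 164 cases (7.32%). Over all protein-coding genes outside V that are not members the share was 14.6%. These counts of bound members are small, and a link between lying side by side and binding was not tested.

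The members lay farther from a summit than protein-coding genes in general. The median distance from the start of an nhr gene to the nearest summit was 35669 bp, against 13491 bp over all protein-coding genes. On V it was 44995 bp for members and 22595 bp for all genes. Of the members 97 (36.1%) lay over 50 kb from a summit, against 11.8% of all protein-coding genes. Over 100 kb away were 48 of the 167 members on V (28.7%), against 9.15% of all genes on V, and 4 of the 102 members elsewhere. Members that sit side by side can share their nearest summit, so the same stretch without summits is counted for several of them. The farthest member was nhr-156, at 202024 bp. Within 10 kb of a summit were 49 members (18.2%), the bound ones included, against 41.5% of all genes. Of the 256 unbound members 36 lay within 10 kb (14.1%), and their median distance was 38136.5 bp.

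**Figure D2:**
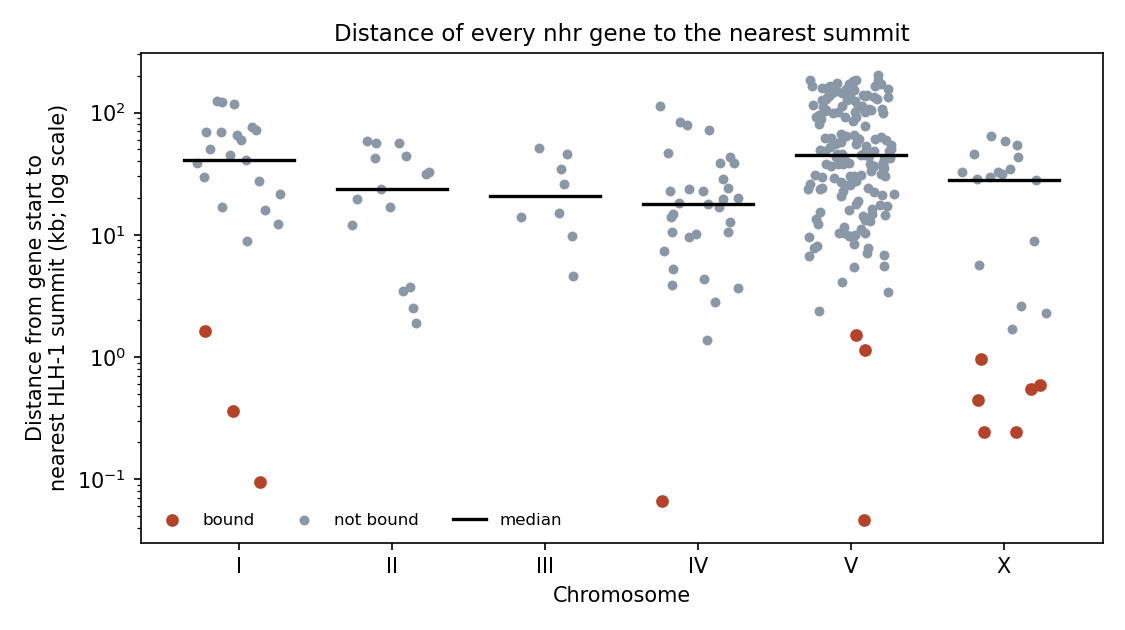
Distance in kb, on a log scale, from the start of each nhr gene to the nearest HLH-1 summit, by chromosome; red points are bound members, grey points are members not bound, and black lines are medians over all members of the chromosome. The median is longest on V, 44995 bp, and shortest on IV, 17970 bp, and the bound members lie apart from most others of their chromosome.

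The free sequence upstream of the members was longer outside V than on V. The median distance from a member's start to the next protein-coding gene body upstream was 1591 bp, against 938 bp over all protein-coding genes, and for members outside V it was 3424 bp. On V it was 1033 bp for members, against 947 bp for all protein-coding genes of V. On X it was 5034 bp for members, against 2124 bp for all protein-coding genes of X. No such median over all genes outside V is given here. Among members with at least 2000 bp free upstream 6 of 115 were bound (5.22%), and among the others 7 of 154 (4.55%). Over all protein-coding genes these shares were 12.1% and 13.1%. On V none of 50 members with such free sequence was bound, against 7.33% of all genes of V with it. On X 5 of 17 such members were bound, against 16.5%.

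Most bound members had their summit a short way upstream. Of the 13 summits 12 lay upstream of the start, 8 of them within 600 bp, and the median distance was 443 bp. The summit at nhr-64 lay downstream. By annotation 11 were intergenic, and the others were in 5′ UTRs. The window itself reaches 2000 bp upstream and only 500 bp downstream, which favours upstream summits. No such counts are given here for all bound genes, so it is not known whether the placement is particular to the family. The median score was 65.0 over the 13 bound members, against 55.03 over all bound protein-coding genes by their strongest peak, and 7 of the 13 ranked in the upper 50% of the list. The highest score of a member, 150.9 at nhr-32, ranked 197 of 3254, and the lowest, 33.6 at nhr-2, ranked 3133.

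**Figure D3:**
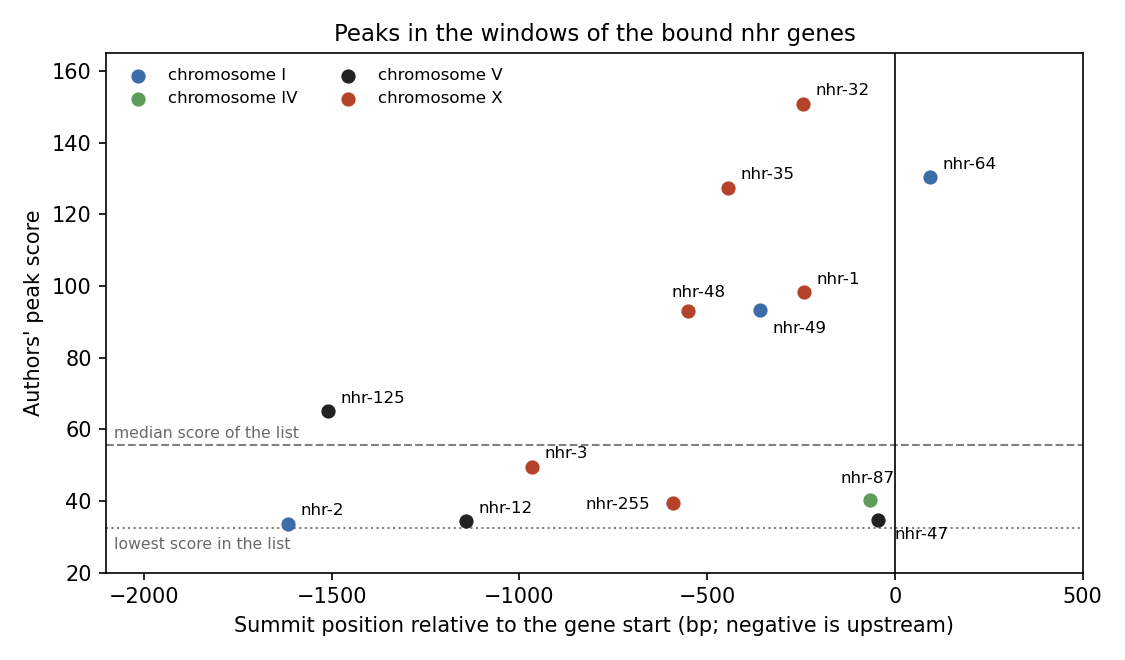
The authors' score of each peak in the window of a bound nhr gene against the distance of its summit from the gene start in bp, coloured by chromosome; the dotted line is the lowest score of the thresholded list (32.5) and the dashed line its median (55.7). Of the members above the dashed line, nhr-125 lies 1510 bp upstream of its start and the other 6 lie within 600 bp.

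The strongest peaks of the family on X stood at nhr-32, nhr-35, nhr-1 and nhr-48. At nhr-32 the peak (chromosome X, 13251649 to 13251727) had its summit at 13251720, 244 bp upstream of the start in intergenic sequence. It scored 150.9 in the thresholded list, 11.8 in replicate 1 and 138.9 in replicate 2. At nhr-35 (summit 443 bp upstream, intergenic) the scores were 127.4 in the thresholded list, 15.4 in replicate 1 and 107.3 in replicate 2. Both peaks were thus among the 3254 strongest of each replicate, at ranks 823 and 176 for nhr-32 and 470 and 342 for nhr-35 in replicates 1 and 2. At nhr-1 (17513674 to 17513969, summit 241 bp upstream, intergenic) the peak scored 98.2. The overlapping peaks had a score of 18.4 in replicate 1 and 91.8 in replicate 2, and the summit in replicate 1 lay 262 bp from that of the thresholded peak. At nhr-48 (15707514 to 15707809, summit 551 bp upstream, intergenic) the scores were 92.9, 8.67 and 80.7 in the thresholded, replicate 1 and replicate 2 lists. NHR-48 is of the same subfamily as DAF-12 and NHR-8, which is related to the vertebrate vitamin D receptor.

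Weaker peaks on X lay at nhr-3 and nhr-255. The nhr-3 summit was 967 bp upstream of the start (14557389 to 14557684, score 49.6), in sequence that is intergenic for protein-coding genes and inside the annotated non-coding RNA H01A20.2. The nhr-255 summit was 591 bp upstream (15741871 to 15742166, score 39.5). Neither peak overlapped any peak of replicate 1, and in replicate 2 they scored 48.04 at nhr-3 and 34.6 at nhr-255. The nhr-255 summit also fell in the window of the chemoreceptor gene srg-64, 1393 bp upstream of its start, and lay 31 bp from a tRNA gene. It was the 1 member summit within 250 bp of a gene for a small RNA (tRNA, snoRNA, snRNA, miRNA or rRNA), against 5.81% of all thresholded summits.

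Below are the 101 bp centred on the summits of 4 members on chromosome X (ce11), on the strand of the gene from 5′ to 3′, with every E-box in capitals. They are shown because 3 of them hold high-scoring summits of the family on X, and, for nhr-3, the E-box CAACTG without a counterpart peak in replicate 1.
nhr-32 (chrX:13251670-13251770): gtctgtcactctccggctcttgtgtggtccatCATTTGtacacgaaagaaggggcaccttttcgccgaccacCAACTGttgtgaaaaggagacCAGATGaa
nhr-1 (chrX:17513772-17513872): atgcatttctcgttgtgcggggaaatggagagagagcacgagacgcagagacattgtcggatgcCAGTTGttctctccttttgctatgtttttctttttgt
nhr-48 (chrX:15707612-15707712): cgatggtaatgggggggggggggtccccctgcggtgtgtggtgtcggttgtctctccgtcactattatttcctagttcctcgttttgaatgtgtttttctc
nhr-3 (chrX:14557487-14557587): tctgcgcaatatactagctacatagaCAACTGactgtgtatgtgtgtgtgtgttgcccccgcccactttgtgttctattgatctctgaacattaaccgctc

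The nhr-32 window held 3 E-boxes. CATTTG was centred 15.5 bp upstream of the summit, the site CAACTG 24.5 bp downstream and the site CAGATG 45.5 bp downstream. The called peak ended at 13251727, so CAACTG (from 13251742) and CAGATG (from 13251763) lay outside it. The nhr-1 window held CAGTTG, the reverse complement of CAACTG, 16.5 bp downstream of the summit, and the nhr-3 window CAACTG 21.5 bp upstream of it. No E-box was present in these 101 bp at nhr-48.

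On V the strongest member was nhr-125, whose summit (peak 4326877 to 4327172, score 65.0, intergenic) lay 1510 bp upstream of its start. The same summit lay 96 bp upstream of the start of D2063.1, the nearest start. It had a counterpart in both replicates, with scores of 8.39 in replicate 1 and 56.8 in replicate 2. The nhr-12 summit (10085043 to 10085338, score 34.3) lay 1142 bp upstream of nhr-12 but in the 5′ UTR of R04B5.6, 27 bp downstream of the start of that gene. The nhr-47 summit (5505059 to 5505354, score 34.6) was 46 bp upstream of the start of nhr-47 and 350 bp upstream of dnj-19, a gene for a DnaJ-type chaperone, and lay inside the non-coding RNA C24G6.10. All 3 summits on V were therefore shared with the window of another protein-coding gene, as was that of nhr-255, and for nhr-125 and nhr-12 the other start was the nearer. On IV the nhr-87 summit (1623815 to 1624110, score 40.3) was intergenic and 66 bp upstream of its start. It scored 34.2 in replicate 2 and 4.33 in replicate 1, where the overlapping summit was 309 bp away.

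Among the 3 bound members on I were 2 HNF4-like receptors with known parts in fat metabolism. NHR-64 is tied to fat storage, and NHR-49 controls fatty acid desaturation and the response to fasting. At nhr-64 the summit (peak 3101798 to 3102093) lay in the 5′ UTR, 95 bp downstream of the start, and scored 130.3. It was the member peak with the best rank in replicate 1, at 120 (score 25.4), and ranked 339 in replicate 2 (score 108.0). The summit coincided with CAGCTG, centred 2.5 bp from it, the single CAGCTG among the 13 summit windows. At nhr-49 the summit (9869144 to 9869439) was intergenic, 359 bp upstream of the start. Its scores were 93.3 in the thresholded list, 9.25 in replicate 1 and 86.6 in replicate 2, and its 101 bp held no E-box. The gene nhr-2, which is active in the early embryo, had a weak peak 1617 bp upstream (5822603 to 5822898, score 33.6; 3.91 in replicate 1 and 28.6 in replicate 2).

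The replicates divided the bound members into a stronger and a weaker set. All 13 peaks overlapped a peak of the relaxed list of replicate 2, and 11 one of replicate 1. Among the 3254 highest-scoring peaks were 10 of the 13 in replicate 2 and 8 in replicate 1. The 7 found in both by overlap were the peaks at nhr-1, nhr-32, nhr-35, nhr-48, nhr-49, nhr-64 and nhr-125. These are also the 7 members with the highest scores, but those scores come from the same replicates pooled, so the 2 orders are not independent. That is 7 of 13 peaks, beside 48.2% of the whole thresholded list. The peaks at nhr-2 and nhr-47 were in neither replicate's 3254 strongest, and those at nhr-3, nhr-87 and nhr-255 only in those of replicate 2. The nhr-12 peak was only in those of replicate 1, at rank 2717. The 3254 strongest peaks of replicate 1 alone added nhr-50, nhr-88, nhr-176 and nhr-253 to the bound members, and those of replicate 2 alone nhr-280.

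**Figure D4:**
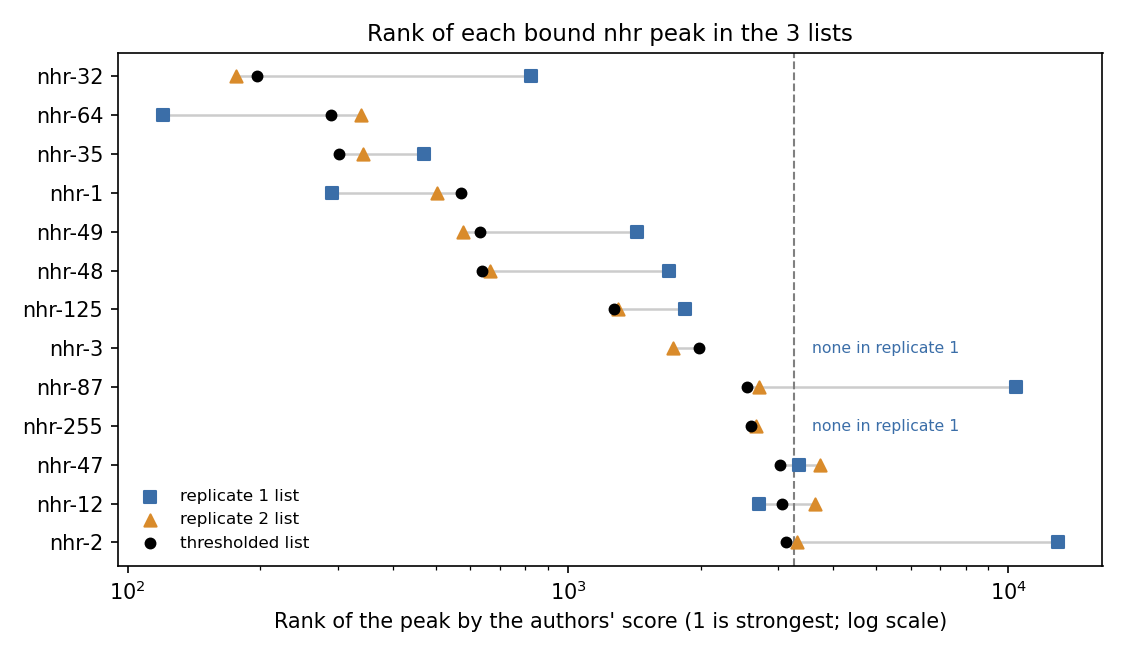
Rank by the authors' score, on a log scale with 1 the strongest, of each bound nhr peak in the thresholded list (circles) and of the strongest overlapping peak in the relaxed lists of replicate 1 (squares) and replicate 2 (triangles); the dashed line is rank 3254. The upper 7 genes lie left of the line in every list, and nhr-3 and nhr-255 had no overlapping peak in replicate 1.

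E-boxes were about as frequent at member summits as at all summits. At least 1 of the 10 distinct E-boxes, searched on both strands and allowing several in a window, was present in the 101 bp of 8 of 13 member summits (61.5%), beside 63.4% of all 3254. A set of 3 E-boxes was also counted, made of CAGCTG, the related CAACTG and the related CACCTG, and at least 1 of them was present at 4 of 13 member summits and 1261 of 3254 summits (38.8%). CAACTG was present at 3 member summits, nhr-1, nhr-3 and nhr-32 (18.0% of all summits), CAGCTG at nhr-64 (15.2% of all) and CACCTG at none (9.43% of all). CACATG was the most frequent in the family (4 of 13 member summits, among them nhr-12, nhr-87 and nhr-125, beside 7.28% of all summits). The counts are of the 101 bp windows, and at nhr-32 the CAACTG lay outside the called peak. With 13 windows such counts are small, and the capitals are letters in a window, not proven sites. The repeat GAGAGA was present at 5 of 13 member summits and 29.7% of all.

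E-boxes were common in the windows of members as a whole. CAGCTG occurred between 2000 bp upstream and 500 bp downstream of the start in 99 of 269 members (36.8%), against 39.6% of all protein-coding genes. Of those 99 members 6 were bound (6.06%), against 15.7% of all protein-coding genes with the motif, and of the other 170 members 7 were bound (4.12%, against 10.9%). CAACTG was present in 68.4% of member windows and 74.0% of all windows. Members with it were bound in 5.43% of cases and members without it in 3.53%, against 12.7% and 12.9% of all protein-coding genes. CACCTG was present in 53.2% of member windows and 47.2% of all windows. Of 143 members with it 6 were bound and of 126 members without it 7, against 13.5% and 12.2% of all genes. The shares of members rest on few bound genes for each motif, so no direction is read from them.

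Several members outside the bound set carried summits deeper in the gene. Within the gene body but beyond the window lay summits of 7 members (2.60%, against 3.34% of all protein-coding genes), and all but nhr-3 of these were unbound by the window. NHR-40, which is known from work on embryonic body wall muscle and movement, is encoded on X. Its first intron held a summit 1709 bp downstream of the start (2595564 to 2595859, score 68.8), and a second summit lay 332 bp outside the window, 2332 bp upstream of the start (2591523 to 2591818, score 38.2). The intronic peak scored 67.3 in replicate 2, at rank 953, and 4.96 in replicate 1, at rank 7604. The upstream one scored 44.9 and 5.09 in those replicates. At nhr-66, which acts with nhr-49 in lipid metabolism, an intron held a summit at 1373 bp past the start (IV, 8235081 to 8235376, score 44.6, with no overlapping peak in replicate 1). The other, 7000 bp downstream (8229454 to 8229749, score 67.2), was present in both replicates with scores of 9.11 and 53.1. It fell within a 5′ UTR, 25 bp upstream of the start of the transcript T09A12.4j.1. The gene nhr-66 is therefore bound when the start of any transcript is accepted, the 1 member to be gained by that rule.

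At nhr-17 on X the gene was flanked and entered by peaks without any in its window. Summits lay 2711 bp (score 78.1) and 4256 bp (score 100.7) upstream of the start and 2629 bp downstream, in an intron (12665077 to 12665372, score 64.8) and inside the non-coding RNA C02B4.8. The bound gene nhr-3 had a second, stronger peak in an intron, 1928 bp downstream (score 65.7). The remaining gene body summits were intronic, at nhr-19 (II, 1896 bp downstream, score 69.3), nhr-46 (IV, 3651 bp, score 38.3) and nhr-34 (IV, 4374 bp, score 34.6). The nhr-19 and nhr-46 peaks did not overlap any peak of replicate 1.

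**Figure D5:**
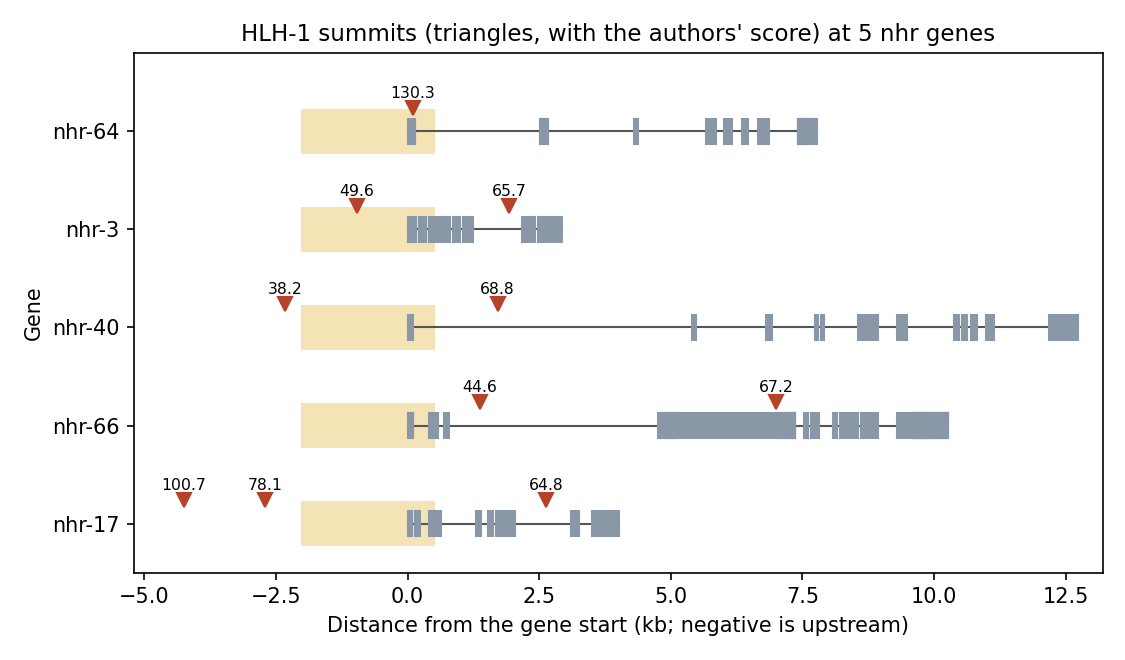
Exons (grey boxes, all transcripts together) and thresholded HLH-1 summits (triangles, with the authors' score) of 5 nhr genes against the distance from the gene start in kb; the pale band is the window from 2000 bp upstream to 500 bp downstream. Summits fall in the band at nhr-64 and nhr-3. A further, stronger summit of nhr-3 and all those at nhr-40, nhr-66 and nhr-17 fall outside it.

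The 101 bp at 3 of these summits (ce11, strand of the gene, 5′ to 3′, E-boxes in capitals) are shown because each holds CAGCTG or CAACTG in a gene that the window leaves out.
nhr-40 intron (chrX:2595662-2595762): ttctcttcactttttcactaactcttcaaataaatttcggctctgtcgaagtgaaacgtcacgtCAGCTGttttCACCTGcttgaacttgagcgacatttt
nhr-66 intron (chrIV:8235179-8235279): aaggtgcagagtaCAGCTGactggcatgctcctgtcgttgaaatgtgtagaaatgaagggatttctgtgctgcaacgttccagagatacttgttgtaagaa
nhr-66 internal start (chrIV:8229552-8229652): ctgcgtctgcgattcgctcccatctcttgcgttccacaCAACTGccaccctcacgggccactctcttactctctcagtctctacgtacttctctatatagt

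The nhr-40 intron held CAGCTG and CACCTG centred 16.5 and 26.5 bp downstream of the summit. The summit in the intron of nhr-17, not printed, also had CAACTG, centred 17.5 bp upstream of it. That summit lay inside the non-coding RNA C02B4.8. Distances to tRNA and other small RNA genes are not given here for gene body summits, so closeness to one is not known. In the intron of nhr-66 CAGCTG was centred 34.5 bp upstream of the summit, and at its internal start CAACTG 9.5 bp upstream. The remaining gene body summits, at nhr-3, nhr-19, nhr-34 and nhr-46, held none of the set of 3 E-boxes in their 101 bp. At nhr-3, nhr-19 and nhr-34 a different E-box was present, and at nhr-46 none. The printed windows were picked for their motifs, so they do not stand for gene body summits in general.

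Members just outside the window were few. Just inside it was nhr-2, at 1617 bp upstream. Nearest to the window without a summit in it were nhr-281 (279 bp beyond its edge), nhr-40 (332 bp), nhr-88 (525 bp), nhr-17 (711 bp) and nhr-146 (842 bp). The summit near nhr-281 (score 56.3) was 385 bp from the start of F28H6.7, and that near nhr-146 was the nhr-87 summit. Those near nhr-88 (score 41.9) and nhr-17 had no nearer start than the member's.

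In the relaxed pooled list, peaks of any score were about as common at nhr genes on V as at all genes there. This list, which holds background by design, also holds the thresholded peaks, so its counts include the bound genes. It had a summit in the windows of 115 of the 269 members (42.8%), against 51.5% of all protein-coding genes. On V it was 65 of 167 members (38.9%), against 40.4% of all genes of V. The median strongest score in the window was 11.9 for members with such a peak and 15.4 over all genes with one. Bound genes made up 13 of these 115 members and 2553 of these 10284 genes, so the medians are not of weak peaks alone. The unbound member nearest to the threshold of 32.5 was nhr-280 (III, 1095 bp upstream, score 30.05). Next were nhr-119 (score 26.3), nhr-10 (25.6), nhr-50 (24.98) and nhr-174 (24.5). The nhr-280 peak scored 30.05 in replicate 2 and 3.69 in replicate 1, and nhr-50 had the better rank in replicate 1, at 1300, against 9258 in replicate 2.

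Of 11 receptors with a counterpart subfamily outside nematodes 1 was bound, nhr-48 (9.09%), beside 12 of the 258 other members (4.65%) and 12.8% of all protein-coding genes. With 11 genes the count cannot be told apart from the share over all genes. The moulting regulators nhr-23 (ROR-like) and nhr-25 (FTZ-F1-like) had their nearest summits 65045 and 32681 bp upstream of the start, and nhr-85 (Rev-erb-like) 21523 bp downstream. The NR4A-type gene nhr-6 (9757 bp downstream), the TR2/TR4-like nhr-41 (24248 bp upstream) and the tailless-like nhr-67 (19996 bp upstream) were also unbound. So were nhr-91, of the GCNF type (28023 bp upstream), nhr-8, known for sterol and toxin responses (78725 bp downstream), nhr-111 (37954 bp upstream) and nhr-239 (15164 bp downstream). Relaxed pooled peaks in their windows reached 19.5 at nhr-25 and 15.8 at nhr-41, under the threshold, and nhr-67 had none in any of the relaxed lists.

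Receptors known from metabolism gave 2 of 14 bound, nhr-49 and nhr-64 (14.3%), a share near the 12.8% of all protein-coding genes. Partners of NHR-49 were not bound by the window. For nhr-80 and nhr-13, which act on fatty acid desaturases, the nearest summits were 50859 and 65769 bp upstream, and nhr-66 is described above. The propionate pathway regulators nhr-10 and nhr-68 were 25988 and 24203 bp from a summit. The others were nhr-62 (dietary restriction, 8884 bp), nhr-69 (12212 bp), nhr-76 (serotonin-dependent fat loss, 19719 bp), nhr-31 (excretory cell growth, 38959 bp), nhr-14 (iron uptake, 53985 bp), nhr-114 (vitamin B12 and tryptophan, 7787 bp) and nhr-8. Of these nhr-114 had a relaxed pooled peak 93 bp upstream of its start with a score of 22.5, in an intron of Y45G5AM.9.

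Nuclear receptor genes without an nhr- symbol gave 1 of 5 bound, a count too small to set apart from the 12.8% of all protein-coding genes. This was sex-1, an X-linked gene that takes part in counting X chromosomes, with a summit 1209 bp upstream and a score of 35.0. The dauer regulator daf-12 had its nearest summit 6590 bp upstream, fax-1, needed in neurons, 8976 bp downstream, and the olfactory gene odr-7 3386 bp downstream. At unc-55, which sets motor neuron identity, it was 35535 bp downstream.

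Other families gave a frame for the count. By the same rule 6 of 63 ceh homeobox genes (9.52%, interval 4.44 to 19.3), 2 of 25 hlh genes (interval 2.22 to 24.97) and 0 of 19 tbx genes (interval up to 16.8%) were bound, beside 4.83% of nhr genes. Over all protein-coding genes the share was 12.8%, which each of these intervals of the ceh, hlh and tbx families holds. Among 1364 chemoreceptor genes, of which 66.4% lie on V, 25 were bound (1.83%, interval 1.24 to 2.69). On V alone 13 of 906 chemoreceptor genes and 3 of 167 nhr genes (1.80%) were bound, against 7.29% of all protein-coding genes of V. The interval of the nhr family, 2.85 to 8.09, overlaps those of the ceh, hlh and tbx families and lies above that of the chemoreceptor genes. None of these differences was tested.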

How the data were processed

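HLH-1 ChIP-seq peaks of 2 biological replicates were taken as deposited. Per the deposited manifest, the authors called relaxed peaks on ce11 for each replicate and for the pooled alignments, each with a control not analysed here, and derived the thresholded list from these 3. The authors gave each peak a score of unstated scale, used only within a list. The sources used here name no aligner, no caller of peaks and no IDR cut-off. Genes came from Ensembl release 115 (WBcel235, the build ce11) and sequence from the RefSeq genome of that assembly. Coordinates are 1-based. The sequence at the nhr-35 summit is not reported here. Replicate peaks were matched by overlap of 1 bp or more.

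Bound genes were counted with Python 3.11.15 and pandas 2.3.3; Wilson intervals used scipy 1.17.1. The assignment was tested on simulated data: all 200 genes given a summit were recovered among 19973. The members, lists and rules were chosen with earlier results of these data known. Named genes were all bound members, 2 role lists, 5 other receptors, unbound members nearest to the window or the threshold, and nhr-40; further genes followed from their values: gene body summits, members gained by other settings, and nhr-156. Alternatives were other peak lists, windows, starts and assignments, and sequence windows. No test was made, since genes and peaks are not replicates.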

Additional observations from a re-analysis of the deposited data

How the results depend on the processing

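The share of nhr genes bound was lower than that of all protein-coding genes under each of 11 alternatives. With the 1627 highest-scoring peaks 7 members were bound (2.60%, against 6.23% of all genes; 1 on V), and 7 with the 1567 peaks that were among the strongest of each replicate (2.60%, against 6.03%; 1 on V). Both left the same 7 genes, losing nhr-2, nhr-3, nhr-12, nhr-47, nhr-87 and nhr-255, but both rest on the same replicates and are not independent. With 1 replicate's strongest peaks alone, 11 to 12 members were bound (4.09% to 4.46%, against 10.1% to 12.9% of all genes), 1 to 5 of them on V, where 1 came from replicate 2 alone and 5 from replicate 1 alone. All relaxed pooled peaks gave 115 members (42.8%, against 51.5%), 65 on V and 7 conserved. The window of 1000 bp upstream to 200 bp downstream left 1 on V (9.22% of all genes bound), and that of 5000 bp upstream gave 22 members (8.18%, against 19.7%), 5 on V. Any transcript's start bound 13.7% of all genes, the nearest start only 8.83% (1 member on V). A window to the end of the gene, chosen after seeing the data, gave 19 members and 15.1% of all genes. On X the members' share stayed above that of all genes of X under every one of these. The alternatives reuse the same 23 genes and many of the same peaks, so they are not independent. With replicate 1 alone it was 4 members (17.4%, against 13.6%), and with all relaxed pooled peaks 60.9%, against 55.4%. In the main count the members' interval on X, 12.5 to 46.5, held the 15.7% of all genes there. Summits with the set of 3 E-boxes numbered 3 to 5. No paired analysis was possible because there is 1 group. Depth is unknown, so a gene not bound may carry a weaker site.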
